A study of Mesostigma viride with 16 samples.

Results

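The transcription factor genes of *Mesostigma viride* were examined by family across 8 growth conditions. *M. viride* is a unicellular, flagellated freshwater alga, and the streptophytes, the lineage to which it belongs, also gave rise to the land plants. All gene identifiers that the study placed in a transcription factor family were taken as members, whatever their level. The list held 122 genes in 32 families, out of 24431 genes with expression values. Expression values were available for 117 of these genes, and Mv00594-RA (AThook), Mv17253-RA (B3), Mv00804-RA (C2H2-ZnF and IDD-related), Mv23027-RA (CCAAT-NFYC) and Mv13954-RA (RWP-RK) were not analysed here. Families had been assigned by similarity to proteins of other species, so that a family name states such a similarity and not a function shown in *M. viride*.

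Poly(A) RNA of strain NIES-296 had been sequenced after 24 h of 1 changed condition each: no light (the darkness group), light raised to 400 µmol photons (high light), 12 °C (cold), 32 °C (high temperature), medium at pH 6.0 set with Tris-HCl (low pH) and medium at pH 9.0 set with NaOH (high pH). The light intensities are per square metre and second, and all other settings were those of the untreated cultures, at 23 °C, 50 µmol photons and pH 7.5 with alternating light and dark. Untreated cultures formed Control1, the reference for light and temperature, and cultures that received the same volume of medium formed Control2, the reference for pH. Values from 15 libraries were used, 2 per condition except Control1 with 1 library, whose spread was assumed to be like that of the other conditions. Levels are FPKM, fragments counted relative to transcript length and to all mapped fragments, and can therefore be compared between genes. A gene was tested when it reached 0.5 FPKM in at least 2 libraries, by limma on log2(FPKM + 0.1) over all tested genes, and was called when its absolute log2 fold change was at least 1 with an adjusted p (Benjamini-Hochberg) no larger than 0.01.

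Transcription factors bind short DNA sequences near genes and raise or lower their transcription, often as dimers or as parts of larger complexes. In land plants, heat shock factors (HSF) switch on chaperone genes, basic leucine zipper (bZIP) and B-box (BBX) proteins act in light signalling, E2F and DP proteins with 3R-MYB and CXC proteins time the expression of cell cycle genes, and RWP-RK proteins act in nitrogen responses and in the germ line. NF-Y proteins bind the CCAAT box as a trimer of an A, a B and a C subunit.

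Of the 117 genes, 112 (95.7%) passed the minimum, against 14297 (58.5%) of all 24431 genes. The tested members had a median level of 12.8 FPKM (quartiles 4.97 and 30.5), against 7.55 FPKM (3.05 and 17.1) over all tested genes. A single member stood far above the rest: Mv13803-RA, of the AP2/ERF family, had 1317 to 3438 FPKM. The next highest medians were 235 FPKM for Mv00171-RA (bZIP), 215 FPKM for Mv06685-RA (BBX), 180.2 FPKM for Mv13735-RA (bHLH) and 102 FPKM for Mv15453-RA (CCAAT-NFYB). Mv13803-RA was thus more than an order of magnitude above every other member in its median. Among the 5 members that missed the minimum, Mv02798-RA (bZIP), Mv01553-RA (GARP) and Mv09155-RA (HD) were listed at 0 in all libraries. Mv06781-RA (C2H2-ZnF) had 0.125 to 0.263 FPKM. Mv20329-RA, the only member of the cold shock domain (CSD) family, had 0.0238 to 0.112 FPKM, so that no response of this family to cold could be tested.

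Libraries of the same condition were close to each other. The median absolute difference between replicates over the tested members was 0.05 to 0.14 on the log2 scale in 6 conditions and 0.25 at high temperature. The high temperature libraries stood apart from all others in their distribution of values. The median FPKM of the tested genes was 2.98 and 2.57 there, against 7.14 to 8.58 in the other 13 libraries. As a result the median log2 fold change over all tested genes was -1.29 for high temperature against Control1. When each library was divided by the median ratio of its genes to their geometric means (median-ratio scaling, called scaling here), this median moved by 1.11 to -0.18. FPKM are relative to the mapped fragments of a library, so a fall of most genes and a larger share taken by other genes cannot be told apart here. A change in the total amount of RNA cannot be seen in such values. Values for high temperature are therefore given as deposited and after this scaling.

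**Figure D1:**
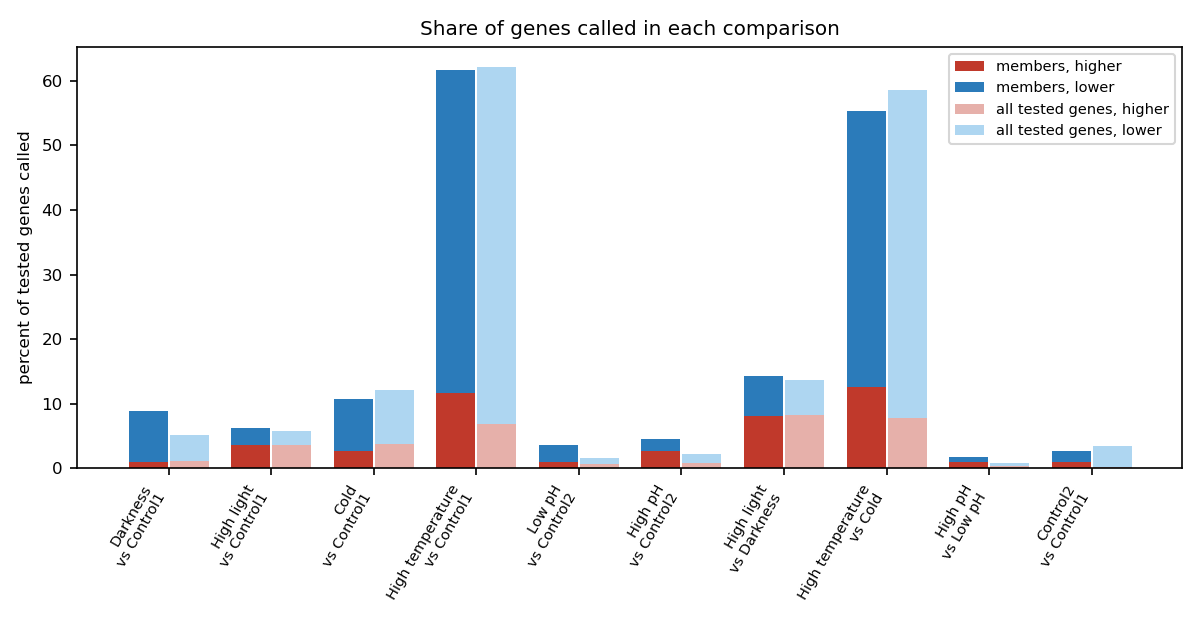
Percent of tested genes called in each comparison (y axis), for the 112 tested transcription factor genes (dark bars, left) and for all 14297 tested genes (pale bars, right), split into genes higher (red) and lower (blue) in the condition named first. The shares of members lie close to those of all genes in most comparisons, and high temperature stands out for both, with 61.6% of members and 62.2% of all genes.

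In at least 1 of the 6 comparisons with a control, 75 members (67.0%) were called, against 67.3% of all tested genes. Without high temperature the count was 24 members (21.4%), against 17.5% of all tested genes. The other 51 of the 75 members were called at high temperature only, beside the drop from 67.3% to 17.5% over all tested genes. Most members varied little outside high temperature: the means of the other 7 conditions lay within 1 on the log2 scale for 70 members (62.5%), against 58.2% of all tested genes. The narrowest ranges of condition means over all 8 conditions (given on the log2 scale, followed by the range of single libraries in FPKM) were those of Mv09388-RA (bZIP, 0.23 on the log2 scale, 12.7 to 19.5 FPKM), Mv11396-RA (bHLH, 0.23, 19.8 to 24.3 FPKM), Mv18385-RA (B3, 0.36, 36.8 to 54.9 FPKM), Mv08497-RA (HMG-box, 0.38, 9.6 to 12.8 FPKM) and Mv13735-RA (bHLH, 0.43, 153 to 213 FPKM). These ranges are of FPKM as deposited and were not computed after scaling. After scaling, 8 of the 10 tested bZIP genes and 2 of the 4 bHLH genes, Mv13735-RA included, were called higher at high temperature than in Control1. Of all tested genes, 20.5% were called higher then. The widest ranges as deposited belonged to Mv00563-RA (CXC, 5.29), Mv19808-RA (Dof, 4.09), Mv08288-RA (E2F/DP/DEL, 3.96), Mv19742-RA (BBX, 3.86) and Mv09648-RA (HD, 3.82), and in each of them high temperature was the highest or the lowest condition.

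The widest contrast in light was that of high light with darkness, which has 2 libraries on each side. The members with the largest differences were 2 bZIP genes that went in opposite directions. Mv16600-RA had 89.4 and 79.5 FPKM in high light, against 12.2 and 11.4 FPKM in darkness (log2 fold change 2.83, SE 0.0809, adjusted p = 2.36e-10). Mv11124-RA had 12 and 11.6 FPKM in high light, against 83.6 and 84.2 FPKM in darkness (log2 fold change -2.82, SE 0.122, adjusted p = 7.11e-09). The control libraries lay between, at 24.9 to 33 FPKM for Mv16600-RA and 29.4 to 32 FPKM for Mv11124-RA, so that each gene differed from the controls in both lights and in opposite senses. Proteins of this class pair through a leucine zipper, and HY5 of *Arabidopsis* is the bZIP factor best known from light signalling.

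In this contrast 16 members were called, 9 higher and 7 lower (14.3%, against 13.7% of all tested genes, 8.17% higher and 5.48% lower), and the median log2 fold change was 0.02 over the members and -0.09 over all tested genes. R2R3-MYB proteins carry a pair of MYB repeats and regulate, among much else, pigments and cell identity in land plants. The R2R3-MYB gene Mv11642-RA had 39.9 and 36.9 FPKM in high light, against 5.73 and 5.99 FPKM in darkness (log2 fold change 2.69, SE 0.14, adjusted p = 3.4e-08). The homeodomain gene Mv09648-RA had 9.92 and 9.45 FPKM in high light, against 2.07 and 2.01 FPKM in darkness (log2 fold change 2.19, SE 0.094, adjusted p = 6.53e-09). Both replicates in darkness were below every library of the other conditions for Mv11642-RA, whereas for Mv09648-RA the high temperature libraries were lower still. The other R2R3-MYB genes, Mv08879-RA and Mv13778-RA, had log2 fold changes of 0.66 and -0.24 and were not called.

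Smaller rises in high light over darkness were called for 6 further genes, among them Mv12850-RA (C2H2-ZnF, log2 fold change 1.03). The CXC gene Mv20076-RA had 20.3 and 19.4 FPKM in high light, against 7.22 and 6.84 FPKM in darkness (log2 fold change 1.48, SE 0.147, adjusted p = 7.92e-06). The B-box gene Mv15449-RA had 23.9 and 25.2 FPKM in high light, against 9.69 and 10.1 FPKM in darkness (log2 fold change 1.30, SE 0.0735, adjusted p = 6.66e-08). The NF-Y C subunit gene Mv15801-RA had 15.8 and 15 FPKM in high light, against 6.0 and 6.49 FPKM in darkness (log2 fold change 1.29, SE 0.136, adjusted p = 1.24e-05). In none of these did the libraries of the 2 lights overlap. These genes were chosen by their calls, which makes such a separation likely, so it is no further support. The remaining rises were less steady: Mv22952-RA (HMG-box) had 17.1 and 16.7 FPKM in high light, against 6.05 and 9.49 FPKM in darkness, and its log2 fold change of 1.15 was 0.83 without Darkness replicate 1, 1.13 without High light replicate 1 and 1.16 without High light replicate 2, and was not called in any of these. Mv20953-RA (HD) had 1.06 and 0.882 FPKM in high light, against 0.35 and 0.49 FPKM in darkness, near the minimum for testing, and its log2 fold change of 1.05 was 0.47 when 1 FPKM was added in place of 0.1. It was not called without Darkness replicate 1 (0.85) or without High light replicate 1 (0.93) or 2 (1.17).

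Apart from Mv11124-RA, 6 members were lower in high light. The AP2/ERF gene Mv03756-RA had 6.34 and 6.12 FPKM in high light, against 25.6 and 25.4 FPKM in darkness (log2 fold change -2.02, SE 0.0797, adjusted p = 3.19e-09). AP2/ERF proteins answer to ethylene, drought and cold in flowering plants. The bZIP gene Mv08277-RA had 27.1 and 23 FPKM in high light, against 87.2 and 89.2 FPKM in darkness (log2 fold change -1.82, SE 0.0704, adjusted p = 2.73e-09). The bZIP gene Mv17328-RA had 12.2 and 12.1 FPKM in high light, against 32.5 and 35 FPKM in darkness (log2 fold change -1.47, SE 0.141, adjusted p = 6.09e-06). Thus 3 bZIP genes were called lower and 1 higher in high light as deposited, and 3 lower and 2 higher after scaling. The GARP gene Mv16180-RA had 10.9 and 8.8 FPKM in high light, against 24.8 and 25 FPKM in darkness (log2 fold change -1.33, SE 0.13, adjusted p = 6.78e-06). GARP proteins carry a MYB-like domain found in the response regulators of cytokinin signalling and in phosphate starvation regulators. The B-box gene Mv06685-RA had 128 and 127 FPKM in high light, against 277 and 271 FPKM in darkness (log2 fold change -1.10, SE 0.0582, adjusted p = 3.72e-08). Mv02124-RA (GARP) lay at the threshold, with 22.5 and 21.4 FPKM in high light, against 44.3 and 43.7 FPKM in darkness and a log2 fold change of -1.0, which was -0.99 without Darkness replicate 1 and -0.97 without High light replicate 2.

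**Figure D2:**
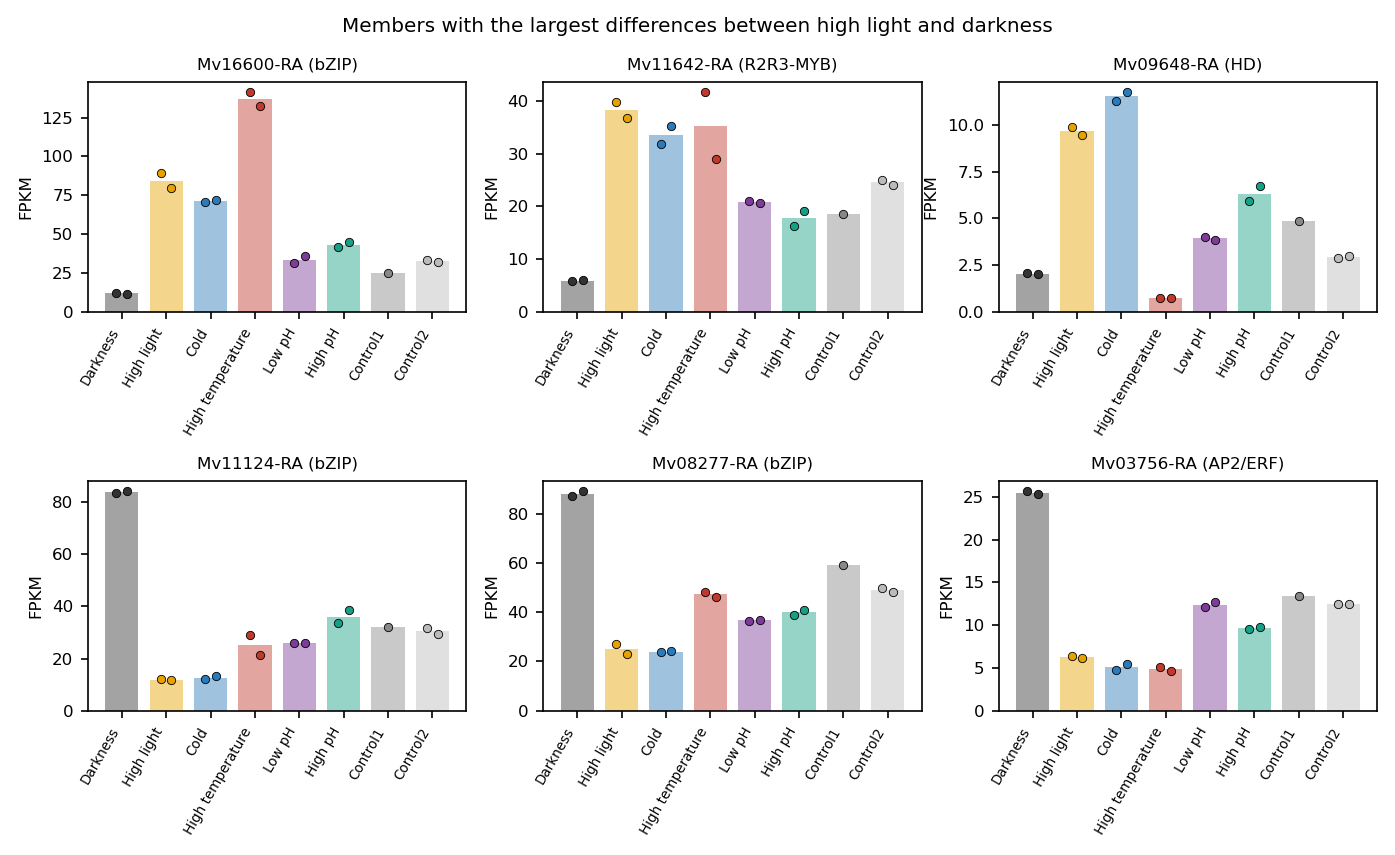
FPKM (y axis) of 6 transcription factor genes in the 8 conditions (x axis), with bars for the mean and points for the libraries, 2 per condition and 1 for Control1. Mv16600-RA, Mv11642-RA and Mv09648-RA had less FPKM in darkness than in high light, and Mv11124-RA, Mv08277-RA and Mv03756-RA more, with the highest values of these last genes in darkness.

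Against Control1, darkness called 10 members, 1 higher and 9 lower (8.93%, against 5.15% of all tested genes, 1.13% higher and 4.02% lower), with a median log2 fold change of -0.10 over the members and over all tested genes. The rise was that of Mv11124-RA, with 83.6 and 84.2 FPKM in darkness, against 32 FPKM in Control1 and 31.9 and 29.4 FPKM in Control2 (log2 fold change 1.39, SE 0.149, adjusted p = 4.44e-05). Among the falls, Mv20076-RA (CXC) had 7.22 and 6.84 FPKM in darkness, against 22.4 FPKM in Control1 and 14.3 and 14.2 FPKM in Control2 (log2 fold change -1.66, SE 0.18, adjusted p = 4.8e-05). Mv11642-RA (R2R3-MYB) had 5.73 and 5.99 FPKM in darkness, against 18.6 FPKM in Control1 and 25.1 and 24.1 FPKM in Control2 (log2 fold change -1.65, SE 0.172, adjusted p = 3.49e-05). Mv15449-RA (BBX) had 9.69 and 10.1 FPKM in darkness, against 23.1 FPKM in Control1 and 21.9 and 21 FPKM in Control2 (log2 fold change -1.22, SE 0.090, adjusted p = 2.76e-06). For these genes, and for the bZIP gene Mv16600-RA (log2 fold change -1.07, adjusted p = 1.51e-05), the dark libraries were apart from all 3 untreated libraries, and the call held with Control2 as the reference.

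The other 5 falls in darkness reached the fold threshold against the single Control1 library but not against Control2. The E2F/DP/DEL gene Mv08288-RA had 9.14 and 9.14 FPKM in darkness, against 21.9 FPKM in Control1 and 16 and 16.4 FPKM in Control2 (log2 fold change -1.25, SE 0.166, adjusted p = 0.000207). Mv15801-RA (CCAAT-NFYC) had 6.0 and 6.49 FPKM in darkness, against 18.5 FPKM in Control1 and 7.2 and 8.69 FPKM in Control2 (log2 fold change -1.56, SE 0.166, adjusted p = 4.17e-05). Mv17069-RA (CCAAT-NFYC) had 5.73 and 6.18 FPKM in darkness, against 13 FPKM in Control1 and 8.61 and 7.84 FPKM in Control2. In all of these, as in Mv00563-RA (CXC, log2 fold change -1.20) and Mv09648-RA (HD, -1.22), Control1 was above both Control2 libraries, and with Control2 as the reference the log2 fold changes were -0.82, -0.34, -0.46, -0.51 and -0.51 and were not called. The adjusted p of limma was then 0.00053, 0.0637, 0.00257, 0.00271 and 0.00115 in the same order. All but Mv15801-RA thus missed the fold threshold alone. Beside these families, 14 cell division genes were picked from those listed by the study. They are cyclin-dependent kinases, cyclins, Aurora kinases, TPX2 and subunits or regulators of the anaphase-promoting complex and spindle checkpoint. The pick was made with earlier results of these data known, so its shares are no independent support for the falls above. Of the 14, 4 (28.6%) were lower in darkness than in Control1, against 4.02% of all tested genes, and 0 were higher. With Control2 as the reference 2 of 14 (14.3%) were lower, against 3.15% of all tested genes, and 1 of them, the Aurora kinase homolog Mv02252-RA, was among the 4.

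High light called 7 members against Control1, 4 higher and 3 lower (6.25%, against 5.81% of all tested genes, 3.55% higher and 2.26% lower), with median log2 fold changes of -0.10 over the members and -0.20 over all tested genes. After scaling the split was 6 higher and 2 lower (4.31% and 1.23% of all tested genes). The steadiest calls were those of the bZIP genes already described, Mv16600-RA at 89.4 and 79.5 FPKM in high light, against 24.9 FPKM in Control1 (log2 fold change 1.75, SE 0.0991, adjusted p = 2.13e-07), and Mv11124-RA, with a log2 fold change of -1.43 (adjusted p = 3.39e-05). Mv08277-RA (bZIP, -1.25), Mv03756-RA (AP2/ERF, -1.09) and Mv12850-RA (C2H2-ZnF, 1.03) were called close to the threshold, and with Control2 as the reference their values were -0.97, -0.99 and 0.95 and were not called. The rises of Mv17703-RA (BBX, 1.10) and Mv11642-RA (R2R3-MYB, 1.04) were 0.46 and 0.64 against Control2 and were not called there either. The call of Mv12850-RA was also lost without High light replicate 2, and that of Mv11642-RA without High light replicate 1 (0.98).

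Cold called 12 members, 3 higher and 9 lower (10.7%, against 12% of all tested genes, 3.76% higher and 8.28% lower), with median log2 fold changes of -0.16 over the members and -0.26 over all tested genes. After scaling, 11 were higher and 4 lower (5.97% and 3.53% of all tested genes). The 3 rises were also called under this scaling and under quantile normalization. Mv16600-RA (bZIP) had 70.9 and 72.2 FPKM in cold, against 24.9 FPKM in Control1 (log2 fold change 1.52, SE 0.0991, adjusted p = 5.52e-07). Mv09648-RA (HD) had 11.3 and 11.7 FPKM in cold, against 4.87 FPKM in Control1 (log2 fold change 1.23, SE 0.115, adjusted p = 9.65e-06). Mv00503-RA, a C2H2 zinc finger gene, had 25 and 28 FPKM in cold, against 11.8 FPKM in Control1 (log2 fold change 1.16, SE 0.0788, adjusted p = 7.42e-07). Both cold libraries of each gene were above all 3 untreated libraries.

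The falls in cold that were called under all 3 scalings were those of 4 genes. The only NF-Y A subunit gene, Mv16230-RA, had 17.7 and 19.3 FPKM in cold, against 55.7 FPKM in Control1 and 47.7 and 44.3 FPKM in Control2 (log2 fold change -1.59, SE 0.0756, adjusted p = 4.15e-08). The A subunit is the part of the NF-Y trimer that reads the CCAAT sequence, and none of the 5 tested B and C subunit genes was called in cold. Mv03756-RA (AP2/ERF) had 4.75 and 5.42 FPKM in cold, against 13.4 FPKM in Control1 (log2 fold change -1.38, SE 0.0976, adjusted p = 1.02e-06). Mv11124-RA (bZIP) had 12 and 13.5 FPKM in cold, against 32 FPKM in Control1 (log2 fold change -1.33, SE 0.149, adjusted p = 4.03e-05). Mv08277-RA (bZIP) had 23.8 and 24.3 FPKM in cold, against 59.5 FPKM in Control1 (log2 fold change -1.30, SE 0.0862, adjusted p = 6.08e-07). These last 3 genes, with Mv16600-RA in the other direction, were also among the calls in high light, and both comparisons share the Control1 library.

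The most abundant member, Mv13803-RA (AP2/ERF), had 1338 and 1317 FPKM in cold, against 2719 FPKM in Control1 and 2847 and 2946 FPKM in Control2 (log2 fold change -1.03, SE 0.0454, adjusted p = 2.17e-08). Its log2 fold change was -0.76 after scaling and -0.50 after quantile normalization, below the threshold but in the same direction. Cold was its lowest condition, followed by high light at 2223 and 2197 FPKM, and the other conditions gave 2719 to 3438 FPKM. Mv05480-RA (HMG-box, -1.12), Mv00351-RA (BBX, -1.09) and Mv00563-RA (CXC, -1.06) were called as deposited, with -0.84, -0.82 and -0.79 after scaling. The growth-regulating factor gene Mv07440-RA had 4.38 and 4.71 FPKM in cold, against 16.8 FPKM in Control1 and 6.3 and 11 FPKM in Control2 (log2 fold change -1.86, SE 0.442, adjusted p = 0.0054), and it was not called without either cold library (-1.81 and -1.91) or with Control2 as the reference (-0.86). None of the 4 HSF genes was called in cold, with log2 fold changes of 0.45 for Mv19848-RA, 0.09 for Mv20706-RA, -0.12 for Mv20172-RA and -0.08 for Mv10352-RA.

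At high temperature 69 members were called, 13 higher and 56 lower (61.6%, against 62.2% of all tested genes, 6.83% higher and 55.3% lower). The median log2 fold change was -1.0 over the members and -1.29 over all tested genes. After scaling, 60 members were called, 35 higher and 25 lower (53.6%, against 50.4% of all tested genes, 20.5% higher and 29.8% lower), with medians of 0.14 and -0.18. Whether a member was called therefore depended on the scaling in many cases, and 12 rises and 18 falls were called as deposited, after this scaling and after quantile normalization. High temperature was the condition with the highest mean for 24 members (21.4%), against 10.8% of all tested genes, and with the lowest mean for 71 members (63.4%), against 65.8%.

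**Figure D3:**
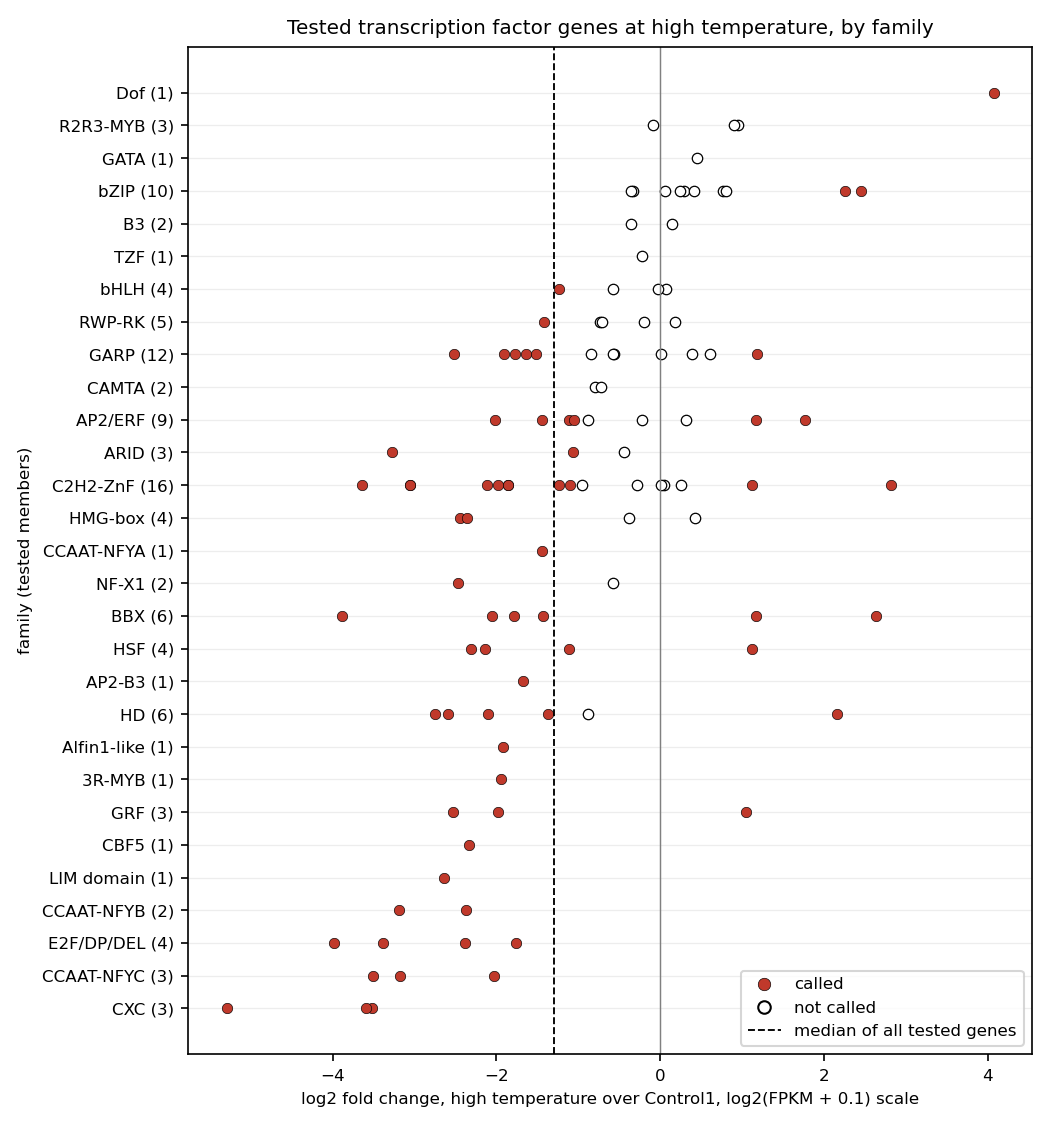
Log2 fold change of each tested transcription factor gene, high temperature over Control1 (x axis), by family (y axis, with the number of tested members, ordered by family median). Red points were called and white points were not, and the dashed line is the median of all tested genes (-1.29). Dof, R2R3-MYB and bZIP lie at the upper end, and CXC, NF-Y C and E2F/DP/DEL genes lie at the lower end, left of the dashed line.

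The largest rise was that of Mv19808-RA, the only Dof gene. Dof proteins have a single zinc finger and are known from seed storage, light and flowering-time regulation in land plants. Mv19808-RA had 63.1 and 48.4 FPKM at high temperature, against 3.19 FPKM in Control1 and 6.48 and 6.98 FPKM in Control2 (log2 fold change 4.07, SE 0.149, adjusted p = 4.89e-10), with 5.24 after scaling. The range of the other conditions was 3.14 to 5.98 FPKM. The C2H2 zinc finger gene Mv00503-RA had 83.8 and 83.9 FPKM at high temperature, against 11.8 FPKM in Control1 (log2 fold change 2.82, SE 0.0788, adjusted p = 7.25e-11). The B-box gene Mv17703-RA had 120.4 and 103 FPKM at high temperature, against 17.8 FPKM in Control1 (log2 fold change 2.64, SE 0.0996, adjusted p = 6.17e-10). In all 3 genes both heated libraries were above each of the other 13.

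Among the bZIP genes, Mv07644-RA had 127 and 128 FPKM at high temperature, against 26.6 FPKM in Control1 (log2 fold change 2.26, SE 0.0645, adjusted p = 8.54e-11), and 27.5 to 41.5 FPKM elsewhere. Mv16600-RA had 141 and 132 FPKM at high temperature, against 24.9 FPKM in Control1 (log2 fold change 2.45, SE 0.0991, adjusted p = 1.04e-09), its highest value in any condition. Of the 10 tested bZIP genes none was called lower, as deposited or scaled, 2 were called higher as deposited and 8 after scaling, against 6.83% and 20.5% of all tested genes. The family median was 0.36 as deposited and 1.53 after scaling, against -1.29 and -0.18 over all tested genes. Among the other large rises, Mv20953-RA (HD) had 4.25 and 2.74 FPKM at high temperature, against 0.688 FPKM in Control1 (log2 fold change 2.16, SE 0.306, adjusted p = 4.51e-05). Mv14696-RA (AP2/ERF) had 1.72 and 1.05 FPKM at high temperature, against 0.324 FPKM in Control1 (log2 fold change 1.77, SE 0.414, adjusted p = 0.00202), and was not called without High temperature replicate 1 (1.44). Mv16180-RA (GARP) had 31.9 and 25.6 FPKM at high temperature, against 12.5 FPKM in Control1 (log2 fold change 1.18, SE 0.159, adjusted p = 2.89e-05). Mv06685-RA (BBX) rose by 1.17 against Control1, but its value was 0.52 against Control2 and was not called.

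The 4 heat shock factor genes did not change together. Mv19848-RA had 106 and 100.5 FPKM at high temperature, against 47.3 FPKM in Control1 and 51.6 and 51.3 FPKM in Control2 (log2 fold change 1.12, SE 0.0824, adjusted p = 1.47e-07), with 2.30 after scaling. It was also the most abundant HSF gene in every library. Mv20706-RA had 1.96 and 1.33 FPKM at high temperature, against 8.44 FPKM in Control1 and 8.49 and 8.82 FPKM in Control2 (log2 fold change -2.31, SE 0.18, adjusted p = 2.43e-07), with -1.18 after scaling. Mv10352-RA had 0.946 and 0.889 FPKM at high temperature, against 4.39 FPKM in Control1 and 5.39 and 4.97 FPKM in Control2 (log2 fold change -2.14, SE 0.185, adjusted p = 6.23e-07), with -1.04 after scaling. Under quantile normalization the values of these last genes were -0.50 and -0.11 and were not called. Mv20172-RA had 6.0 and 6.14 FPKM at high temperature, against 13.3 FPKM in Control1 and 12.1 and 12.1 FPKM in Control2, and its log2 fold change was -1.12 as deposited but 0.05 after scaling. The 3 genes with less FPKM at high temperature share 56.8 to 61.0% of the aligned residues held of their proteins. Land plants carry HSF classes that activate and others that repress, and the class of these genes is not given in the sources used here.

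**Figure D4:**
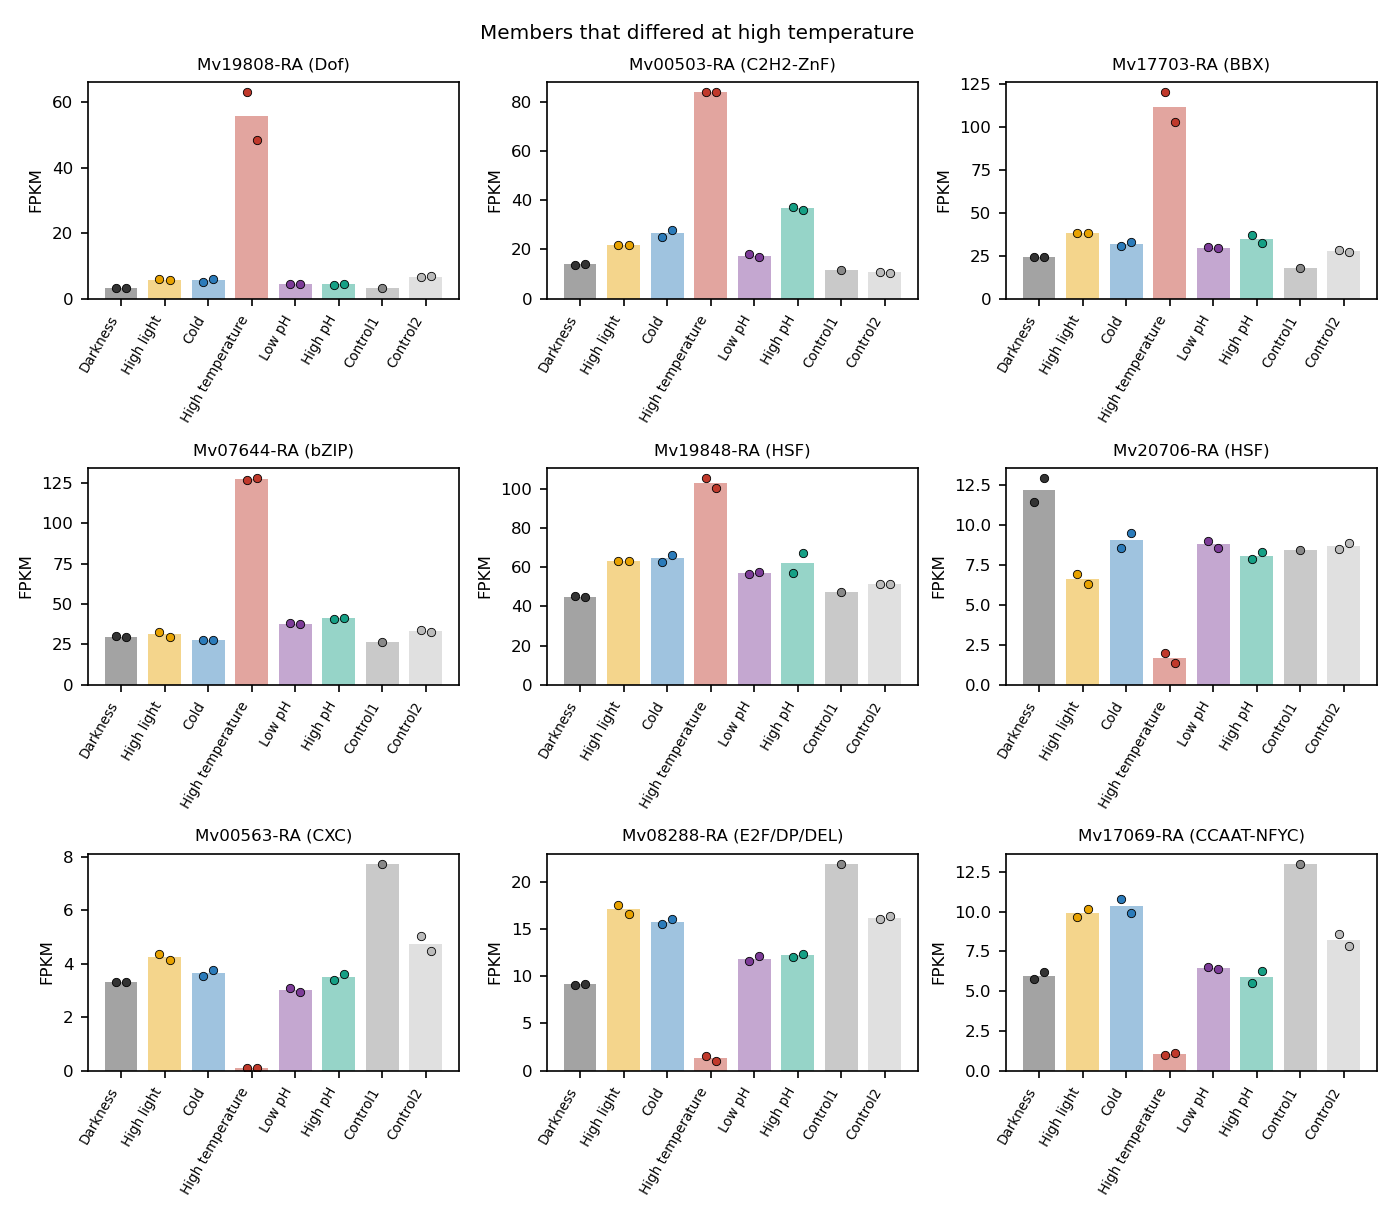
FPKM (y axis) of 9 transcription factor genes in the 8 conditions (x axis), with bars for the mean and points for the libraries, 2 per condition and 1 for Control1. The Dof, C2H2, BBX and bZIP genes and the HSF gene Mv19848-RA had their highest values at high temperature, and the HSF gene Mv20706-RA, the CXC, E2F/DP/DEL and NF-Y C genes their lowest.

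The cell cycle families lay at the other end. In plants and animals, E2F and DP proteins drive genes of DNA replication, 3R-MYB proteins control genes of mitosis, and CXC (tesmin-like) proteins bind with both in one complex. The CXC gene Mv00563-RA had 0.102 and 0.099 FPKM at high temperature, against 7.74 FPKM in Control1 and 5.04 and 4.48 FPKM in Control2 (log2 fold change -5.29, SE 0.132, adjusted p = 3.34e-11), with -4.48 after scaling. Mv08288-RA (E2F/DP/DEL) had 1.58 and 1.05 FPKM at high temperature, against 21.9 FPKM in Control1 and 16 and 16.4 FPKM in Control2 (log2 fold change -3.99, SE 0.166, adjusted p = 1.31e-09), with -2.86 after scaling. The CXC genes Mv20076-RA and Mv00615-RA fell by 3.60 and 3.52 on the log2 scale and by 2.46 and 2.35 after scaling, and Mv08423-RA (E2F/DP/DEL) fell by 3.38 and by 2.24 after scaling. All 3 CXC genes and all 4 E2F/DP/DEL genes were called lower as deposited, and after scaling 3 and 3 were, where 55.3% of all tested genes were lower as deposited and 29.8% after scaling. Mv02116-RA, the 3R-MYB gene, had 8.0 and 6.17 FPKM at high temperature, against 27.4 FPKM in Control1 (log2 fold change -1.95, SE 0.145, adjusted p = 1.67e-07), with -0.78 after scaling, which was not called. Of the 14 cell division genes picked with earlier results known, 11 (78.6%) were lower and 1 was higher at high temperature, and 10 and 2 after scaling. These counts are to be read against the same shares of all tested genes and are no independent support. The rise as deposited was that of Mv14758-RA, listed by the study as a cyclin-dependent kinase homolog and named after its values were seen, with a mean of 53.9 FPKM at high temperature, against 8.58 FPKM in Control1 (log2 fold change 2.64).

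The NF-Y genes were lower at high temperature as deposited in all 6 tested members, and in 4 after scaling, again beside 55.3% and 29.8% of all tested genes. Mv17069-RA (C subunit) had 1.01 and 1.09 FPKM at high temperature, against 13 FPKM in Control1 and 8.61 and 7.84 FPKM in Control2 (log2 fold change -3.51, SE 0.118, adjusted p = 2.66e-10), with -2.40 after scaling. The other C subunit genes fell by 3.18 (Mv15801-RA) and 2.03 (Mv06944-RA) on the log2 scale, the B subunit genes by 3.19 (Mv09243-RA) and 2.37 (Mv15453-RA), and the A subunit gene Mv16230-RA by 1.44. After scaling, Mv06944-RA and Mv16230-RA had log2 fold changes of -0.87 and -0.27 and were not called. The A subunit gene was low in cold as well, and its log2 fold change between high temperature and cold was 0.14 as deposited, not called, and 1.04 after scaling, called higher. The B and C subunit genes had -3.18 to -2.17 in that contrast as deposited, and after scaling all 5 were still called lower.

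Most of the other families with several members held both rises and falls at high temperature, or turned with the scaling. The counts below are to be read against all tested genes, of which 6.83% were higher and 55.3% lower as deposited. After scaling 20.5% of all tested genes were higher and 29.8% lower. Of the 6 BBX genes, 2 were higher and 4 lower as deposited, with Mv19742-RA the lowest at 0.244 and 0.429 FPKM at high temperature, against 6.23 FPKM in Control1 (log2 fold change -3.89, SE 0.25, adjusted p = 4.67e-08), and 2 were higher and 1 lower after scaling. Of the 16 tested C2H2 zinc finger genes, 2 were higher and 9 lower, and 5 and 3 after scaling. Mv07640-RA (C2H2-ZnF) had 0.651 and 0.531 FPKM at high temperature, against 8.47 FPKM in Control1 and 4.76 and 4.4 FPKM in Control2 (log2 fold change -3.64, SE 0.154, adjusted p = 1.49e-09). Of the 9 AP2/ERF genes, 2 were higher and 4 lower, and 3 and 0 after scaling. Of the 12 tested GARP genes, 1 was higher and 5 lower, and 4 and 1 after scaling. Of the 5 tested RWP-RK genes only Mv06461-RA was called as deposited, at -1.42, and its value was -0.28 after scaling and 0.18 against Control2. After scaling Mv19901-RA was the RWP-RK gene called, at 1.35, named after its values were seen. The 3 R2R3-MYB genes had log2 fold changes of -0.09, 0.90 and 0.95 and were not called, and all 3 were called higher after scaling. Homeodomain (HD) proteins guide development in plants and animals, and of the 6 tested HD genes 1 was higher and 4 were lower, and 1 and 2 after scaling. Of the 4 HMG-box genes 0 were higher and 2 lower, and 1 and 2 after scaling. Of the 3 growth-regulating factor (GRF) genes 1 was higher and 2 lower, and 1 and 0 after scaling. Of the 3 ARID genes 0 were higher and 2 lower, and 0 and 1 after scaling. Of the 4 bHLH genes 0 were higher and 1 lower, and 2 and 0 after scaling. The 2 tested NF-X1 genes had 1 fall as deposited and after scaling, and the 2 tested B3 genes had no call as deposited and 1 rise after scaling. In the BBX, C2H2, AP2/ERF, GARP, RWP-RK, GRF and bHLH families falls thus outnumbered rises as deposited, and rises outnumbered falls after scaling. Over all tested genes falls outnumbered rises in both cases. Whether any of these families differed from all tested genes was not tested.

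Some families have 1 tested member. CBF5, which in yeast modifies ribosomal RNA, is represented by Mv22244-RA, with 20.3 and 17.3 FPKM at high temperature, against 95.5 FPKM in Control1 (log2 fold change -2.34, SE 0.0844, adjusted p = 4.37e-10) and -1.17 after scaling. The LIM domain gene Mv05224-RA had 4.23 and 2.46 FPKM at high temperature, against 20.6 FPKM in Control1 (log2 fold change -2.64, SE 0.224, adjusted p = 5.28e-07) and -1.48 after scaling. Both were called under all 3 scalings. The Alfin1-like gene Mv03781-RA and the AP2-B3 gene Mv15360-RA had log2 fold changes of -1.92 and -1.67, and -0.74 and -0.50 after scaling. The GATA gene Mv00313-RA (18.5 to 37.6 FPKM, log2 fold change 0.45) and the TZF gene Mv01996-RA (29.6 to 49.8 FPKM, -0.22) were not called as deposited, and neither were the 2 CAMTA genes Mv02578-RA (-0.80) and Mv06181-RA (-0.72). After scaling the GATA gene had 1.62 and was called higher at high temperature. The TZF gene had 0.95 after scaling, and neither it nor the CAMTA genes were called. Outside high temperature, the Dof gene Mv19808-RA was called as deposited only between the controls, and after scaling it was also called higher in cold (1.04). The CBF5, LIM domain, Alfin1-like, AP2-B3, GATA, TZF, 3R-MYB and CAMTA genes were called in none of the other 5 comparisons with a control, as deposited or scaled.

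The GARP genes include a set of near-identical copies. Mv21535-RA, Mv01553-RA, Mv15844-RA and Mv15854-RA share 99.4 to 100% of the aligned residues held of their proteins, so their FPKM are uncertain, since how reads that fit several copies were assigned was not tested. Mv01553-RA was listed at 0 in all libraries, and the others had 0.627 to 3.22, 0.776 to 4.96 and 0.27 to 3.19 FPKM. Their log2 fold changes at high temperature were -1.64, -1.78 and -2.52, and under quantile normalization 0.37, 0.28 and -1.02. The type B response regulator homolog Mv05823-RA, also a GARP gene, varied least of all members outside high temperature, by 0.16 on the log2 scale.

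High temperature was also set against cold, with 2 libraries on each side. In this contrast 62 members were called, 14 higher and 48 lower (55.4%, against 58.6% of all tested genes, 7.85% higher and 50.7% lower), with median log2 fold changes of -0.91 over the members and -1.07 over all tested genes, and after scaling 32 were higher and 30 lower (50.3% of all tested genes were called then, 19.7% higher and 30.6% lower). Of these, 13 rises and 24 falls were called under all 3 scalings, and the matching share of all tested genes was not computed. Mv19808-RA (Dof) again led the rises, with a log2 fold change of 3.30 (adjusted p = 3.55e-10), followed by Mv07644-RA (bZIP, 2.21) and Mv06685-RA (BBX, 2.08). Mv06685-RA had 318 and 341 FPKM at high temperature, against 73 and 82.9 FPKM in cold, its highest and lowest conditions. Mv00563-RA (CXC, -4.23) and Mv09648-RA (HD, -3.82) were the lowest, and Mv09648-RA had 0.734 and 0.715 FPKM at high temperature, against 11.3 and 11.7 FPKM in cold.

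At low pH 4 members were called, 1 higher and 3 lower (3.57%, against 1.57% of all tested genes, 0.664% higher and 0.902% lower), with median log2 fold changes of -0.07 over the members and -0.02 over all tested genes. The rise was that of the GARP gene Mv16180-RA, which had 25.2 and 22.5 FPKM at low pH, against 8.83 and 7.81 FPKM in Control2 (log2 fold change 1.51, SE 0.13, adjusted p = 1.59e-05). The HMG-box gene Mv05480-RA had 24.4 and 24.4 FPKM at low pH, against 75.3 and 73.3 FPKM in Control2 (log2 fold change -1.60, SE 0.064, adjusted p = 8.48e-08). HMG-box proteins bend DNA and act more as architects of chromatin than at single genes. The RWP-RK gene Mv14069-RA had 2.4 and 0.979 FPKM at low pH, against 6.58 and 7.32 FPKM in Control2 (log2 fold change -2.10, SE 0.308, adjusted p = 0.000672). Its low pH replicates differed by more than a factor of 2, and both were below Control2. Mv13321-RA (C2H2-ZnF) lay at the threshold, with 24.4 and 23.1 FPKM at low pH, against 49.3 and 46.1 FPKM in Control2 and a log2 fold change of -1.0, which was -0.97 without Low pH replicate 2 and -0.96 without Control2 replicate 1.

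High pH called 5 members, 3 higher and 2 lower (4.46%, against 2.25% of all tested genes, 0.79% higher and 1.46% lower), with median log2 fold changes of -0.18 over the members and -0.10 over all tested genes. After scaling the split was 3 higher and 1 lower (0.916% and 1.03% of all tested genes). Mv00503-RA (C2H2-ZnF) had 37.1 and 36.1 FPKM at high pH, against 10.9 and 10.6 FPKM in Control2 (log2 fold change 1.76, SE 0.0643, adjusted p = 2.8e-08). The bZIP gene Mv00171-RA had 454 and 446 FPKM at high pH, against 190.0 and 187 FPKM in Control2 (log2 fold change 1.25, SE 0.0532, adjusted p = 7.63e-08), its highest level in any condition. Mv09648-RA (HD) had 5.9 and 6.72 FPKM at high pH, against 2.9 and 2.98 FPKM in Control2 (log2 fold change 1.07, SE 0.094, adjusted p = 1.59e-05), and was not called without High pH replicate 2 (0.98). The HMG-box gene Mv05480-RA had 29.4 and 29.6 FPKM at high pH, against 75.3 and 73.3 FPKM in Control2 (log2 fold change -1.33, SE 0.064, adjusted p = 2.04e-07). Mv14069-RA (RWP-RK) had 3.05 and 2.38 FPKM at high pH, against 6.58 and 7.32 FPKM in Control2 (log2 fold change -1.33, SE 0.308, adjusted p = 0.00875), and its call was lost without any 1 of the 4 libraries (-1.16 to -1.50) and with the replicate number as a block.

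**Figure D5:**
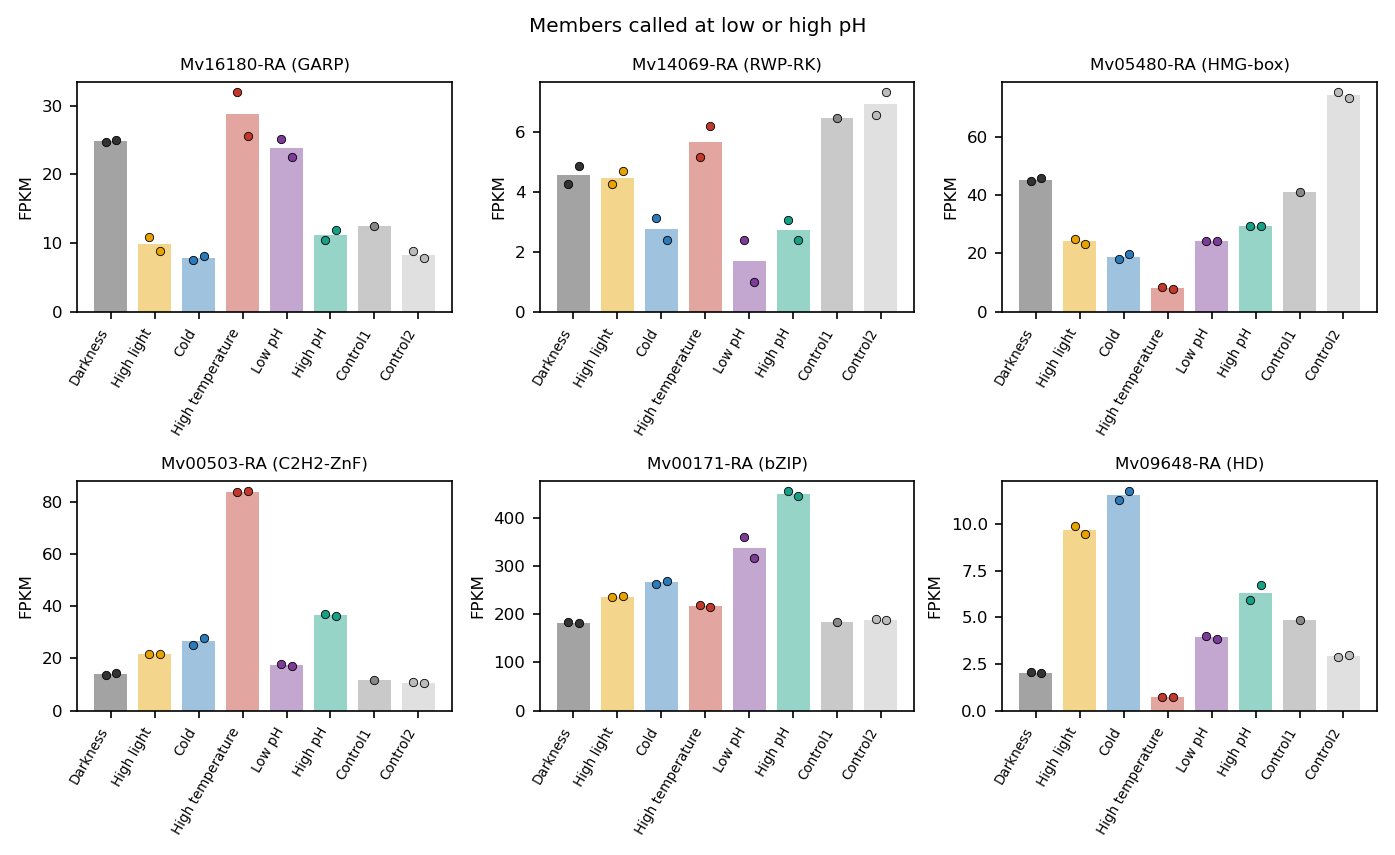
FPKM (y axis) of the 6 transcription factor genes discussed for pH in the 8 conditions (x axis), with bars for the mean and points for the libraries, 2 per condition and 1 for Control1. Mv05480-RA and Mv14069-RA were below Control2 at both pH values, Mv16180-RA was high at low pH, and Mv00503-RA, Mv00171-RA and Mv09648-RA were above Control2 at high pH.

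Mv05480-RA and Mv14069-RA were thus called lower at both pH values, against the Control2 libraries that these comparisons share. Mv05480-RA had its highest level in Control2, while Control1 gave 41.1 FPKM, between the pH treatments and Control2. Set directly against each other, high pH and low pH differed in 2 members, 1 higher and 1 lower (1.79%, against 0.804% of all tested genes, 0.322% higher and 0.483% lower). Mv00503-RA had 37.1 and 36.1 FPKM at high pH, against 17.9 and 17 FPKM at low pH (log2 fold change 1.06, SE 0.0643, adjusted p = 1.72e-06). Mv16180-RA had 10.5 and 11.8 FPKM at high pH, against 25.2 and 22.5 FPKM at low pH (log2 fold change -1.09, SE 0.13, adjusted p = 0.000343), with -0.99 after scaling, just under the threshold. For Mv00171-RA and Mv14069-RA the log2 fold changes between the pH values were 0.42 and 0.77, and neither was called.

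The controls differed from each other in 3 members, 1 higher and 2 lower in Control2 (2.68%, against 3.39% of all tested genes, 0.175% higher and 3.22% lower). Mv06461-RA (RWP-RK) had 1.72 and 1.62 FPKM in Control2, against 5.24 FPKM in Control1 (log2 fold change -1.59, SE 0.244, adjusted p = 0.00149). Mv15801-RA (CCAAT-NFYC) had 7.2 and 8.69 FPKM in Control2, against 18.5 FPKM in Control1 (log2 fold change -1.22, SE 0.166, adjusted p = 0.000709). Mv19808-RA (Dof) had 6.48 and 6.98 FPKM in Control2, against 3.19 FPKM in Control1 (log2 fold change 1.05, SE 0.149, adjusted p = 0.000894). For these genes the choice of control moves a fold change by more than the threshold of 1, and Mv06461-RA was 3.98 to 5.45 FPKM in darkness, high light and cold, near Control1 and above Control2.

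Several members recurred across treatments. Mv16600-RA was above Control1 in high light, cold and high temperature and below it in darkness, with log2 fold changes of 1.75, 1.52, 2.45 and -1.07, all called. Mv00503-RA was above its control in cold (1.16), high temperature (2.82) and high pH (1.76), and its levels in Control1 and Control2, 10.6 to 11.8 FPKM, were the lowest of all conditions. Mv05480-RA was below its control in cold (-1.12), high temperature (-2.35), low pH (-1.60) and high pH (-1.33). Mv03756-RA had 25.6 and 25.4 FPKM in darkness and 4.63 to 13.4 FPKM in all other libraries, so that it was high in darkness alone, yet against Control1 its log2 fold change there was 0.93 with an adjusted p of 3.79e-05, just under the fold threshold. TPL, the corepressor that several of these families recruit in *Arabidopsis*, has a homolog, Mv09757-RA, which had means of 11.3 FPKM in darkness, 9.79 under high light, 6.97 in the cold and 7.57 at high temperature, against 11.2 FPKM in Control1. It was not called in any comparison as deposited, and after scaling it was called higher at high temperature than in cold (log2 fold change 1.01).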

How the data were processed

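The authors mapped polyA reads to their own *M. viride* genome assembly with HISAT2, computed FPKM values per gene with Cufflinks, and deposited 1 FPKM column per library (578174 to 683704 FPKM in total, no whole values). A build name and read counts per library are not given in the sources used here. Ratios of low FPKM values between each library and 1 Control2 library showed no single step per read, so the depth behind each value is unknown. The files of 15 of 16 samples were used. The family list is that of the study's supplement; members and lists were chosen with earlier results of these data known. Values were analysed as log2(FPKM + 0.1), which understates changes of low genes, with limma 3.58.1 in R 4.3.3, a variance trend and 1 mean per condition, on the 14297 genes that reached 0.5 FPKM in 2 or more libraries, and tested on simulated data. The p-values rest on a spread per gene that was pooled over the conditions with 2 cultures and moderated by limma. Control1, with 1 library, adds nothing to this spread. Thresholds follow the study (adjusted p of 0.01, log2 fold change of 1). Named were all called members where at most 12 were called, otherwise the 8 largest rises and falls (fewer for high temperature against cold), the members of families with known roles, and extremes of level and range. Alternatives were other pseudocounts, minimums, scalings and references, a replicate block, fits to only the groups compared and leaving out each library but that of Control1. The reference of all untreated libraries was added after seeing the data. Protein identities used residues held, up to 399 per protein. Figures were drawn with matplotlib 3.10.9.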

Additional observations from a re-analysis of the deposited data

How the results depend on the processing

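The counts of called members stayed within 1.5 times under most alternatives. For darkness the count was 6 with all untreated libraries as the reference and 6 in a fit of only the groups compared. For high light it was 3 in a fit of only the groups compared and 12 after quantile normalization. For high pH against low pH it was 1 after median-ratio scaling. The single Control1 library was never left out, so leaving out libraries cannot show how far the calls against Control1 rest on it. Without 1 of the other libraries the counts were 10 to 10 (darkness), 6 to 7 (high light), 11 to 12 (cold), 68 to 70 (high temperature), 3 to 4 (low pH), 4 to 5 (high pH), 15 to 17 (high light against darkness), 62 to 68 (high temperature against cold) and 2 to 3 (high pH against low pH). With the replicate number as a block the counts were 10, 7, 12, 69, 4, 4, 16, 61 and 2 in the same order. Over 21 pairs of groups, same-numbered libraries had correlated deviations of -0.08 to 0.07, so the numbers do not pair the samples. The replicate block ended 2 calls, both of Mv14069-RA, at high pH against Control2 and at high temperature against cold.

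Members called as deposited against the stated control or under the alternative changed sign as follows, and the cause was not tested. Members called under neither also changed sign, 21 under median-ratio scaling and 15 under quantile normalization for high temperature against Control1. With Control2 as the reference, Mv06461-RA had 0.18 at high temperature, 1.28 in darkness, 1.51 in high light and 1.58 in cold, and Mv19808-RA had -1.05 in darkness. For high temperature against Control1, median-ratio scaling gave 0.04 (Mv00315-RA), 0.09 (Mv06019-RA), 1.07 (Mv08879-RA), 1.14 (Mv13735-RA), 0.07 (Mv16340-RA) and 0.05 (Mv20172-RA). Quantile normalization gave 0.59 (Mv00315-RA), 0.53 (Mv06019-RA), 0.55 (Mv06093-RA), 0.42 (Mv06461-RA), 1.70 (Mv06471-RA), 1.07 (Mv06714-RA), 1.30 (Mv08879-RA), 0.05 (Mv09756-RA), 1.81 (Mv09808-RA), 0.28 (Mv15844-RA), 0.88 (Mv16340-RA), 1.26 (Mv17901-RA), 0.06 (Mv20172-RA) and 0.37 (Mv21535-RA). For high temperature against cold it gave 1.04 (Mv03756-RA), 0.07 (Mv06461-RA), 1.15 (Mv09808-RA), 0.41 (Mv16340-RA) and 0.09 (Mv17901-RA). Since Control1 has 1 library and each other condition 2, and the depth behind the FPKM values is unknown, small differences of low genes cannot be resolved.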
